A study of Mus musculus with 4 samples.

Results

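The 10 genes followed here belong to blood and lymphatic vessel signalling and were read in mouse skin with and without house dust mite (HDM) cream: the VEGF-family ligand genes Vegfa, Vegfb, Vegfc and Pgf, the VEGF receptor genes Flt1, Kdr and Flt4, the angiopoietin genes Angpt1 and Angpt2, and the angiopoietin receptor gene Tek. They were chosen by name, and all 10 were found among the 23238 gene symbols of the deposited tables. The skin came from adult C57BL/6 mice in 4 groups of 1 library each: Egr1 knockout with SDS and HDM extract, wild type with SDS and HDM extract, Egr1 knockout with SDS alone (naive), and wild type with SDS alone (naive). EGR1 is an immediate-early transcription factor, and the study concerned its part in the sensory innervation of the epidermis in atopic dermatitis. SDS, a detergent, was used to disrupt the barrier of shaved ear and neck skin, and HDM-treated skin then received 100 mg of cream, 2 times per week for 3 weeks. They describe the knockout as a line on a C57BL6 background and do not say which part of the gene is disrupted, nor how many animals gave each library.

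VEGF-A is secreted by many cells, keratinocytes included, above all under hypoxia and inflammation, and acts on endothelium through KDR, while FLT1 binds VEGF-A, VEGF-B and PlGF (the product of Pgf) with weaker kinase signalling and can act as a decoy. VEGF-C acts through FLT4, which adult tissue carries mainly on lymphatic endothelium. Angiopoietin 1, made by perivascular cells, keeps vessels quiescent through the receptor TEK (also called TIE2), and angiopoietin 2, stored and released by activated endothelium, competes with it in many settings and loosens the vessel wall. Skin vessels in chronic dermatitis are known to widen and multiply.

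The libraries held 9444989 to 10129020 reads, recovered from the deposited log2 values. A level below is the deposited log2 value, log2(x + 1) of a scaled read number from the 3′ end of transcripts, given with its recovered reads; with 1 library per group no spread between animals can be estimated, and the 95% intervals on ratios cover counting error only. Egr1 itself had 3493 reads in KO-labelled HDM, 1174 in WT HDM, 3158 in KO-labelled naive and 1966 in WT naive skin, so it was not lower in the libraries labelled knockout, which are called KO-labelled here; its 3′ reads may lie outside the disrupted part and so check no label. Xist had 2432 and 2195 reads in the KO-labelled and WT HDM libraries, against 40 and 10 in the naive ones, and the Y-linked gene Ddx3y had 1 and 1 against 2430 and 1925. The HDM libraries thus had the sex-linked transcripts of females and the naive ones those of males, in both genotypes. HDM treatment and the sex of the animals therefore cannot be told apart in either pair. A like difference in both pairs does not separate them. The epidermal keratin genes Krt5, Krt14 and Krt10, chosen after the values were seen to check the tissue label, had 4137 to 86170 reads in the 4 libraries. The KO-labelled naive library stands apart: 4.59% of the genes that reached 50 reads in all other libraries had 10 or fewer there (470 of 10240); the same share was 0.178% in KO-labelled HDM, 0.0418% in WT HDM and 0.196% in WT naive skin. Angpt2 was 1 of those 470 genes. The WT naive library, set in its place in some comparisons below, has a limit of its own. The salivary secretory genes Bpifa2 and Smr3a had 336363 and 248978 reads in WT naive skin. These genes had 44930 and 27619 in KO-labelled naive, 104 and 47 in WT HDM, and 4 and 0 in KO-labelled HDM skin. Ratios to WT naive skin carry this limit. In bulk tissue, fewer cells of a type and less RNA per cell cannot be told apart.

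Start-site sequences are shown for 4 of the genes because their promoters differ in the motifs sought: Vegfa, the VEGF-family ligand gene that stood above both naive libraries in both HDM libraries; Vegfb and Flt1, the genes that hold a form of the GC-rich element known to be bound by EGR proteins; and Tek, whose window holds none of the motifs. Each is the 250 bases before the RefSeq start site (GRCm38.p6, the build mm10), 5′ to 3′ on the gene's strand. Capitals mark matches, on either strand, to the 7 motifs spelled out in the next paragraph. The windows are chr17:46032378-46032627 (minus strand), chr19:6987652-6987901 (minus), chr5:147726012-147726261 (minus) and chr4:94739039-94739288 (plus), in the order printed.
Vegfa: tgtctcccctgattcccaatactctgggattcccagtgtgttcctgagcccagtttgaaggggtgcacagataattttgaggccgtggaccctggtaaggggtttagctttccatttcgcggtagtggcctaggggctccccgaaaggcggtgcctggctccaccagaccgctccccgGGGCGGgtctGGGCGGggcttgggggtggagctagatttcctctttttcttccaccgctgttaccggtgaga
Vegfb: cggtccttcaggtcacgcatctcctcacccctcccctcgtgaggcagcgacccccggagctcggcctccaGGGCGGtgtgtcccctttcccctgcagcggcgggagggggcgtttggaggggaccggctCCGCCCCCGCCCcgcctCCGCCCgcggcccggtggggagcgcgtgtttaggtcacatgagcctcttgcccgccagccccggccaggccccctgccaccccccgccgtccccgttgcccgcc
Flt1: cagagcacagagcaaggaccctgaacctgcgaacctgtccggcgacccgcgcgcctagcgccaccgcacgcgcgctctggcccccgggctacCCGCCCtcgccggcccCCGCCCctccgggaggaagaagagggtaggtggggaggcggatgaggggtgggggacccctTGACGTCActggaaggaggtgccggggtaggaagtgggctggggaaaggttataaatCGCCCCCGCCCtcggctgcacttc
Tek: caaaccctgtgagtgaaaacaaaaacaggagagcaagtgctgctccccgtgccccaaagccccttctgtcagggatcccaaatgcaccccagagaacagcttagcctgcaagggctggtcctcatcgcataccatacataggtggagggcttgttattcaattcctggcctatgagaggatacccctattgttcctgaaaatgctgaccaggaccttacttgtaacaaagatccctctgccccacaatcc

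Promoter sequences were matched for 8 of the 10 genes, not for Angpt1 and Angpt2. These genes have 10 start-site windows, since Vegfa and Pgf have 2 each. The GC box GGGCGG was found in 8 of the 10 windows (7 of the 8 genes, all but Tek), against 32.7% of all 32851 start-site windows of 250 bases. The EGR form GCGGGGGCG, which overlaps a GC box in both genes, was found in 2 of the 10 windows, those of Vegfb and Flt1, against 2.57% of all windows. The other EGR form, GCGTGGGCG, was in 0 of the 10 windows and in 0.536% of all windows. The core ACGTG of the hypoxia response element was found in 1 of the 10 windows, against 16.6% of all windows. That window (chr17:46025164-46025413) precedes a second, downstream Vegfa start site and lies within the span of the gene (chr17:46016993-46032369). The printed window before the first Vegfa start site holds no match to it. The cyclic AMP element TGACGTCA was found in 1 of the 10 windows, that of Flt1 (1.55% of all windows), and the AP-1 element TGANTCA (6.75%) and the ETS element ACCGGAAG (1.72%) in 0 of the 10. The GC content of these windows was 51.2% in Tek, 59.2% in Vegfa, 70.4% in Flt1 and 76.4% in Vegfb, against a median of 52.4% over all windows. A letter match describes the window and is not a binding site.

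Vegfa (chr17:46016993-46032369, minus strand) stood higher with HDM in both genotypes. Its level was 9.32 in KO-labelled HDM (682 reads), 9.82 in WT HDM (839), 6.31 in KO-labelled naive (84) and 8.17 in WT naive skin (272). Both HDM libraries lay above both naive ones, and no neighbours in that order had a counting interval that held 1. HDM skin was 8.15-fold above naive in the KO-labelled pair (6.49 to 10.3) and 3.15-fold in the WT pair (2.74 to 3.62). KO-labelled skin was 3.65-fold below WT in naive skin (2.85 to 4.72) and 1.41-fold below it in HDM skin (1.27 to 1.56). The wider ratio in the KO-labelled pair thus goes with the low naive value of the library that stands apart; set against the WT naive library instead, a choice made after the values were seen, KO-labelled HDM skin stood 2.23-fold higher (1.94 to 2.58).

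Vegfb (chr19:6982473-6987651, minus strand), a ligand of FLT1 known from muscle and fat, stood lower with HDM in both genotypes. Its level was 8.87 in KO-labelled HDM (498 reads), 8.28 in WT HDM (288), 9.92 in KO-labelled naive (1036) and 9.26 in WT naive skin (578). Both HDM libraries lay below both naive ones, and the 4 levels were separated beyond counting error. HDM skin was 2.07-fold lower in the KO-labelled pair (1.86 to 2.31) and 1.97-fold lower in the WT pair (1.70 to 2.27), on either side of the 2-fold size rule. Against WT naive skin, KO-labelled HDM skin was 1.31-fold lower (1.16 to 1.47). KO-labelled skin stood above WT by 1.59-fold in naive skin (1.43 to 1.76) and by 1.51-fold in HDM skin (1.30 to 1.75). Adipocyte markers are given beside it: the 10 markers summed to 1720 and 829 RPM (recovered reads scaled to equal library totals) in KO-labelled and WT HDM skin, against 5675 and 1575 in KO-labelled and WT naive skin, with 1 of the 10 at 0 in KO-labelled naive skin. Of 9 measured adipocyte markers, 5 were lower and 1 higher by 2-fold with HDM in the KO-labelled pair, and 3 lower and 0 higher in the WT pair. Skeletal muscle markers were lower by 2-fold in 4 of 11 and higher in 1 (KO-labelled pair), and lower in 2 and higher in 1 (WT pair); they summed to 4190 and 3225 RPM with HDM, against 5788 and 3297 in naive skin, with none at 0. Of all measured genes, 18.3% were lower and 21.8% higher by 2-fold with HDM in the KO-labelled pair. In the WT pair the shares were 12.8% and 14.5%. The part of these markers in the result was not tested.

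Vegfc (chr8:54077606-54187096, plus strand) and Pgf (chr12:85166635-85177790, minus strand) gave few reads. Vegfc had 9 reads in KO-labelled HDM, 15 in WT HDM, 89 in KO-labelled naive and 14 in WT naive skin, so that 3 libraries could not be told apart by counting error and the KO-labelled naive library stood alone above them. It was 9.86-fold lower with HDM in the KO-labelled pair (4.97 to 22.3), a ratio that rests on that naive library, and the ratio in the WT pair was 1.09 (0.492 to 2.45). Its mean log2 value of 4.43 lay below 5.10, the median of all symbols, which was used as the filter for measured genes; the other 9 genes passed. Pgf, the nearest above that limit with a mean of 5.16, had 43 reads in KO-labelled HDM, 23 in WT HDM, 64 in KO-labelled naive and 23 in WT naive skin. Both KO-labelled libraries lay above both WT ones, by 2.47-fold in naive (1.51 to 4.16) and by 1.63-fold in HDM skin, where the interval of 0.960 to 2.83 held 1. With HDM, Pgf stood at a ratio of 0.674 to naive in the KO-labelled pair (0.447 to 1.01) and 1.02 in the WT pair (0.547 to 1.90).

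**Figure D1:**
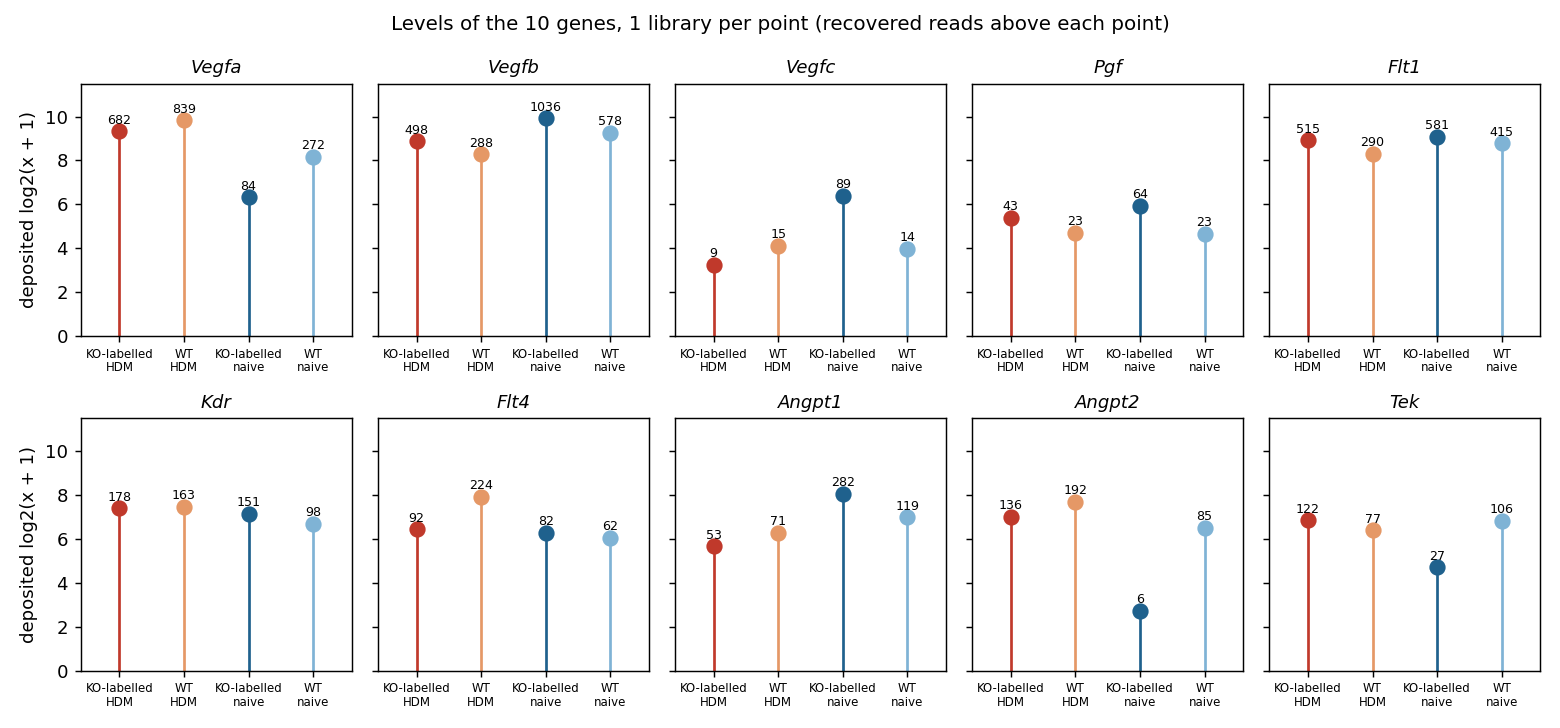
Deposited log2 value of each gene (vertical axis) in KO-labelled HDM, WT HDM, KO-labelled naive and WT naive skin, 1 library per point, with recovered reads printed above the points. Vegfa and Angpt2 are highest in the HDM libraries and lowest in KO-labelled naive skin (84 and 6 reads), while Vegfb and Angpt1 are highest in KO-labelled naive skin (1036 and 282 reads).

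The receptor genes for VEGF-A differed less between libraries than the ligand gene, all within 2-fold in the 4 comparisons. Kdr (chr5:75932827-75978458, minus strand), the main signalling receptor of blood endothelium, had levels of 7.39 in KO-labelled HDM (178 reads), 7.46 in WT HDM (163), 7.15 in KO-labelled naive (151) and 6.71 in WT naive skin (98). Both HDM values lay above both naive values, but the interval of the ratio between KO-labelled HDM and KO-labelled naive skin held 1 (1.18, 0.947 to 1.48); in the WT pair HDM skin was 1.70-fold higher (1.31 to 2.20). Between the HDM libraries Kdr had a KO-labelled to WT ratio of 0.951 (0.765 to 1.18), and its log2 difference of -0.07 became 0.03 when reads were scaled to RPM. Flt1 (chr5:147561604-147726011, minus strand), the high-affinity receptor, had levels of 8.92 in KO-labelled HDM (515 reads), 8.29 in WT HDM (290), 9.09 in KO-labelled naive (581) and 8.78 in WT naive skin (415). Its 4 levels spanned 0.80 on the log2 scale, and both KO-labelled libraries lay above both WT ones. The interval of the ratio between KO-labelled HDM and WT naive skin held 1 (1.10, 0.968 to 1.26). KO-labelled skin was 1.24-fold above WT in naive (1.09 to 1.41) and 1.55-fold in HDM skin (1.34 to 1.79). With HDM, Flt1 was 1.40-fold lower in the WT pair (1.2 to 1.63), and 1.12-fold lower in the KO-labelled pair, where the interval held 1 (0.997 to 1.27).

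Read ratios within a library do not depend on the scaling between libraries. The Vegfa to Kdr read ratio was 3.83 in KO-labelled HDM and 5.15 in WT HDM skin, against 0.556 in KO-labelled naive and 2.78 in WT naive skin. The Vegfa to Flt1 read ratio was 1.32 in KO-labelled HDM and 2.89 in WT HDM skin, against 0.145 in KO-labelled naive and 0.655 in WT naive skin. Reads of the ligand gene were thus higher relative to those of either receptor gene in both HDM libraries. The fold between HDM and naive skin was 6.89 (5.03 to 9.42) and 1.85 (1.39 to 2.47) for Vegfa to Kdr in the KO-labelled and WT pairs, and 9.16 (7.09 to 11.8) and 4.41 (3.6 to 5.41) for Vegfa to Flt1. Against WT naive skin, the ratios of KO-labelled HDM skin were 1.38-fold (1.04 to 1.83) and 2.02-fold higher (1.67 to 2.45), so the folds of the KO-labelled pair rest on its naive library.

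Flt4 (chr11:49609263-49652739, plus strand), the receptor of VEGF-C, was high in a single library. Its level was 6.45 in KO-labelled HDM (92 reads), 7.92 in WT HDM (224), 6.28 in KO-labelled naive (82) and 6.05 in WT naive skin (62). The other 3 libraries could not be told apart from their neighbours by counting error. WT HDM skin was 3.69-fold above WT naive skin (2.77 to 4.97), and the ratio in the KO-labelled pair was 1.13 (0.827 to 1.53). KO-labelled HDM skin was 2.79-fold below WT HDM skin (2.18 to 3.6). These 2 HDM libraries also differed in tissue markers. In the KO-labelled one, 6 of 7 measured cartilage markers were lower by 2-fold and 0 higher (Cytl1 had 26 reads against 11608). Of 9 measured adipocyte markers, 5 were higher and 0 lower. Genotype and tissue content therefore cannot be told apart for Flt4 in HDM skin. Between genotypes in HDM skin, 2 of 5 measured lymphatic endothelial markers were lower by 2-fold in the KO-labelled library and 0 higher. Of all measured genes, 4.67% were lower and 3.06% higher. The 2 were the hyaluronan receptor gene Lyve1 (518 against 1093 reads) and the multimerin gene Mmrn1 (73 against 168). All 5 differences were below 0. Among 13 measured macrophage markers, 12 differences were also below 0 and 1 above. In the WT pair, where Flt4 was higher with HDM, 1 of the 5 lymphatic markers was higher (Pdpn) and 1 lower (Reln), with a median of -0.30. Of all measured genes, 14.5% were higher and 12.8% lower in that pair. The 7 listed lymphatic markers summed to 300 RPM in KO-labelled HDM and 396 in WT HDM skin, against 298 in KO-labelled naive and 240 in WT naive skin. Without Pdpn, left out after the values were seen, the sums were 118 and 199 in KO-labelled and WT HDM skin, against 197 and 180 in KO-labelled and WT naive skin. The defining lymphatic factor gene Prox1 had 0 reads in KO-labelled HDM, 3 in WT HDM, 0 in KO-labelled naive and 26 in WT naive skin, and Stab2 had 0, 5, 0 and 0. The limit that counting sets for a gene at 0 is 3 reads. The part of all these markers in the Flt4 result was not tested.

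Angpt2 stood higher and Angpt1 lower with HDM in both genotypes. Angpt2 (chr8:18690263-18741562, minus strand) had levels of 7.01 in KO-labelled HDM (136 reads), 7.70 in WT HDM (192), 2.72 in KO-labelled naive (6) and 6.504 in WT naive skin (85). Both HDM libraries lay above both naive ones, by 2.31-fold in the WT pair (1.78 to 3.01) and by 22.7-fold in the KO-labelled pair (10.2 to 63.1), where the ratio rests on the 6 reads of the library that stands apart. Against WT naive skin, KO-labelled HDM skin was 1.42-fold higher (1.08 to 1.89). KO-labelled skin was below WT by 16-fold in naive skin (7.05 to 44.8) and by 1.62-fold in HDM skin (1.29 to 2.03).

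Angpt1 (chr15:42424723-42676977, minus strand) had levels of 5.67 in KO-labelled HDM (53 reads), 6.28 in WT HDM (71), 8.05 in KO-labelled naive (282) and 6.99 in WT naive skin (119). Both HDM libraries lay below both naive ones, and the 4 levels were separated beyond counting error. HDM skin was 5.30-fold lower in the KO-labelled pair (3.94 to 7.25) and 1.64-fold lower in the WT pair (1.21 to 2.24). Against WT naive skin, KO-labelled HDM skin was 2.53-fold lower (1.81 to 3.56). KO-labelled skin was 2.10-fold above WT in naive skin (1.69 to 2.63) and 1.54-fold below it in HDM skin (1.06 to 2.24). An annotated antisense gene, Gm17473, overlaps its exons and has no row in the tables; whether the authors' counting used strand is not given in the sources used here, so reads of both cannot be told apart.

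The Angpt2 to Angpt1 read ratio was alike in both HDM libraries, 2.57 in the KO-labelled and 2.70 in the WT library, and lower in naive skin, 0.0213 in the KO-labelled and 0.714 in the WT library. HDM skin had a 3.79-fold higher ratio than naive skin in the WT pair (2.57 to 5.59) and a 121-fold higher one in the KO-labelled pair (50.6 to 288), which rests on the 6 Angpt2 and 282 Angpt1 reads of the naive library that stands apart. Against WT naive skin, the ratio of KO-labelled HDM skin was 3.59-fold higher (2.36 to 5.48). Between the HDM libraries the KO-labelled ratio was 0.949 of the WT one (0.625 to 1.44).

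**Figure D2:**
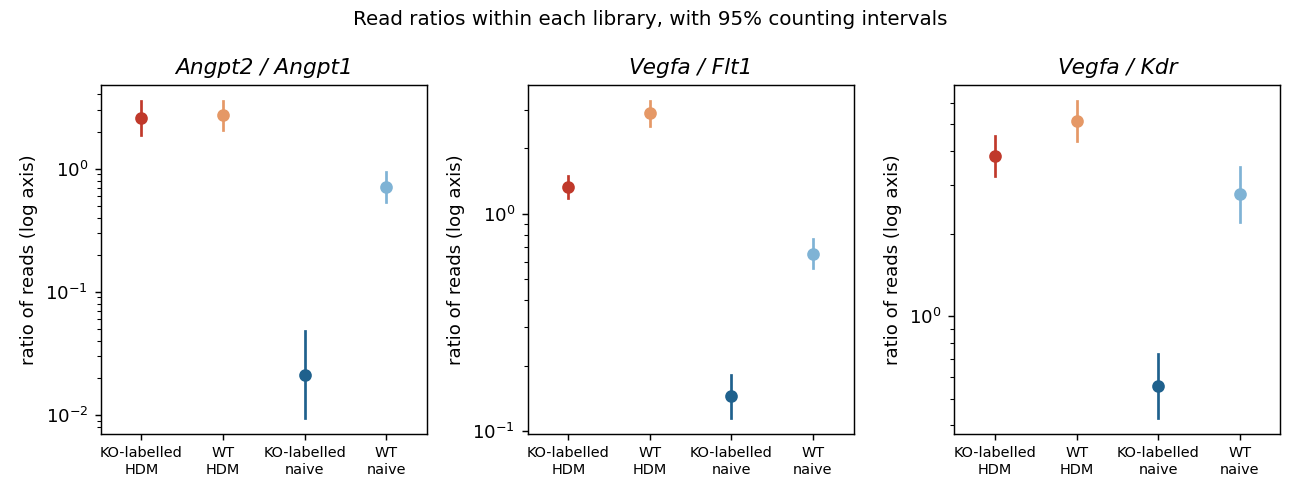
Ratio of reads of the named genes within each library (vertical log axis) in KO-labelled HDM, WT HDM, KO-labelled naive and WT naive skin; bars are 95% counting intervals. All 3 ratios are higher in the HDM libraries than in the naive ones, and the Angpt2 to Angpt1 ratio is 2.57 and 2.70 in the HDM libraries.

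Tek (chr4:94739289-94874976, plus strand), the receptor of both angiopoietins, had levels of 6.85 in KO-labelled HDM (122 reads), 6.39 in WT HDM (77), 4.71 in KO-labelled naive (27) and 6.82 in WT naive skin (106). Only the KO-labelled naive library stood apart beyond counting error from its neighbour in the order of levels. The HDM libraries are not neighbours in that order, so this does not compare them. The KO-labelled minus WT log2 difference was 0.46 in HDM skin and -2.105 in naive skin. HDM skin was 4.53-fold higher in the KO-labelled pair (2.97 to 7.16), while in the WT pair it was 1.35-fold lower with an interval that held 1 (0.996 to 1.83). Against WT naive skin the KO-labelled HDM ratio was 1.02 (0.783 to 1.34). Tie1, which encodes the partner receptor of TEK and was named for that role, had 188 reads in KO-labelled HDM, 170 in WT HDM, 200 in KO-labelled naive and 107 in WT naive skin, without the low value of Tek in KO-labelled naive skin.

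**Figure D3:**
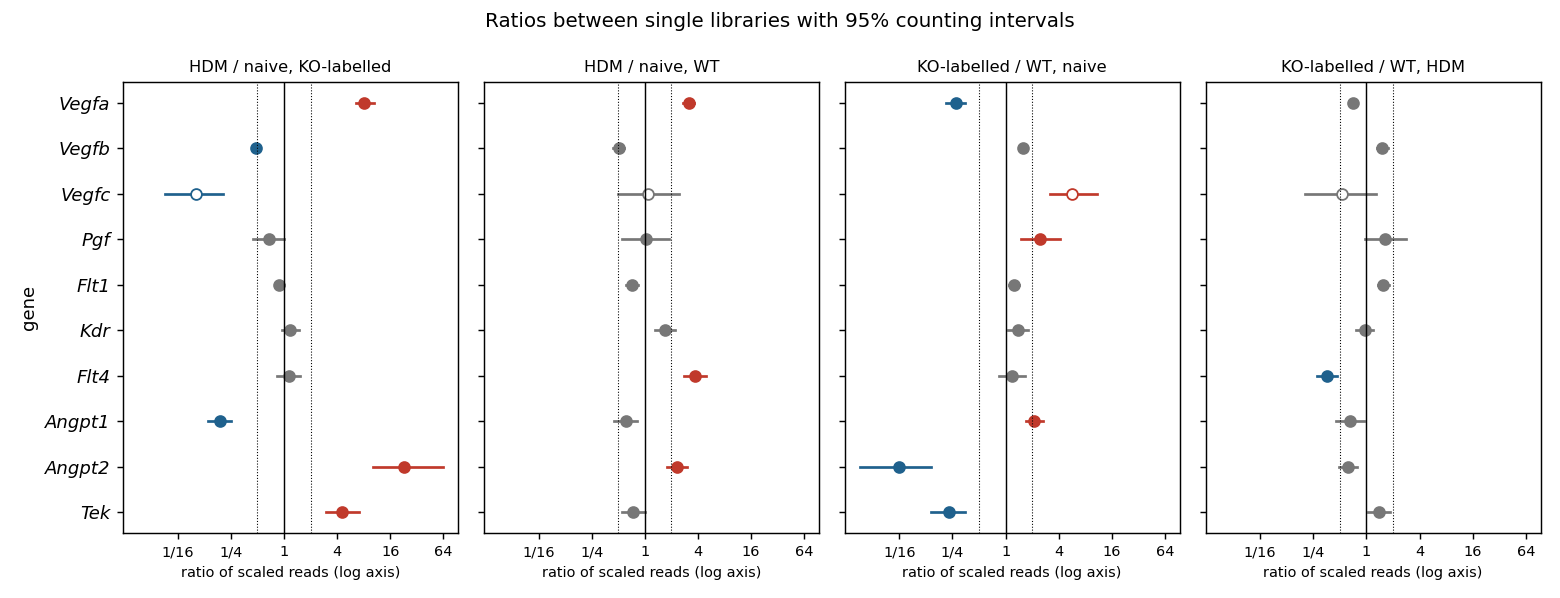
Ratio of scaled reads between 2 libraries (horizontal log axis) for each gene with its 95% counting interval; dotted lines mark 2-fold, red is 2-fold or more higher, blue lower, grey neither, and the open point is the gene below the expression filter. Vegfa and Angpt2 lie past 2-fold higher in both HDM panels, and between genotypes in HDM skin Flt4 alone lies past 2-fold.

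Counted by the size rule of 2-fold, 3 of the 9 measured genes were higher with HDM in the WT pair (Vegfa, Flt4 and Angpt2), against 14.5% of all 11624 measured genes, and 0 were lower, against 12.8%; in either direction 27.3% of all genes passed. In the KO-labelled pair 3 were higher (Vegfa, Angpt2 and Tek; 21.8% of all genes) and 2 lower (Vegfb and Angpt1; 18.3%), against 40.0% of all genes in either direction. Between genotypes in naive skin 2 were higher in the KO-labelled library (Pgf and Angpt1; 13.7%) and 3 lower (Vegfa, Angpt2 and Tek; 17.1%), against 30.8% in either direction. In HDM skin 0 were higher (3.06%) and 1, Flt4, was lower (4.67%), against 7.73% in either direction. The median log2 difference of the 9 genes was 0.03 with HDM in the WT pair and 0.17 in the KO-labelled pair, against 0.03 and 0.06 over all measured genes. It was 0.31 between genotypes in naive and -0.07 in HDM skin, against -0.03 and -0.01 over all genes. The 9 genes lay on both sides of 0 in all 4 comparisons. Both HDM libraries lay above both naive ones for 4 of the 9 (Vegfa, Kdr, Flt4 and Angpt2; 30.2% of all genes) and below them for 2 (Vegfb and Angpt1; 26.8%). Both KO-labelled libraries lay above both WT ones for 2 (Pgf and Flt1, 9.87%) and below them for 0 (9.30%). These orders were counted without regard to counting error.

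The HDM difference itself differed between genotypes by more than counting error in 7 of the 9 measured genes and in 8719 of all 11624 measured genes (75%), so the count does not set the axis apart. The KO-labelled minus WT difference of log2 differences was 3.09 for Angpt2 (1.86 to 4.33), 1.36 for Vegfa (0.978 to 1.74), -1.70 for Flt4 (-2.29 to -1.11) and -1.68 for Angpt1 (-2.28 to -1.08). It was 0.32 for Flt1 (0.04 to 0.59), -0.52 for Kdr (-0.996 to -0.04) and -0.08 for Vegfb, whose interval of -0.33 to 0.18 held 0. Tek had the other interval away from 0, and Pgf one that held it. These intervals hold no spread between animals, and all 9 values use the KO-labelled naive library; with WT naive skin in its place each becomes the difference between genotypes in HDM skin, past 2-fold for Flt4 alone.

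An additive limma fit over all 4 libraries, holding 1 term for treatment and 1 for genotype, was the sole test with a residual degree of freedom (1 per gene). The fit takes most of its error from genes of like level, and counts as error any departure from a like response in both genotypes. With 1 library per group, the fit measures no spread between animals of a group, and its treatment term cannot be told apart from sex. It called Vegfa for treatment, with a log2 effect of 2.33 (SE 0.492) and a Benjamini-Hochberg adjusted p of 0.0351 in limma, higher in 2 of 2 pairs; 4.11% of all measured genes were called. The other 8 genes were not called. Angpt2 had an effect of 2.74 (SE 1.10, adjusted p 0.208 in limma), Angpt1 of -1.55 (SE 0.770, adjusted p 0.3001) and Vegfb of -1.01 (SE 0.382, adjusted p 0.184). Without the intensity trend in the error the adjusted p of Vegfa was 0.294 in limma, past the threshold. For genotype the fit called 0 genes in all (0% of 11624), with 382 at an unadjusted p under 0.05, among them Vegfa (effect -1.18, unadjusted p 0.0405, adjusted p 1 in limma).

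The axis was set beside lists of partner, effector and vessel genes. The 2-fold counts of these lists, here and in the paragraphs below, stand beside shares of all measured genes. With HDM these shares were 14.5% higher and 12.8% lower in the WT pair, and 21.8% and 18.3% in the KO-labelled pair. Of 12 measured partner genes (co-receptors, further ligands and inhibitors), 1 was higher and 0 lower with HDM in the WT pair (median -0.04), and 3 were higher and 2 lower in the KO-labelled pair (median -0.58). Svep1, whose product is a matrix ligand of TIE1, had 65 reads in KO-labelled HDM and 93 in WT HDM skin, against 31 in KO-labelled naive and 38 in WT naive skin. Figf, the X-linked gene of VEGF-D, another FLT4 ligand, had 451 and 268 reads in KO-labelled and WT HDM skin, against 72 and 181 in naive skin, and lay past 2-fold in the KO-labelled pair. Vash1, an endothelial inhibitor of angiogenesis, was 6.42-fold lower with HDM in the KO-labelled pair (4.20 to 10.2), with 25 reads against 161, and Thbs1, the anti-angiogenic matrix gene thrombospondin, 3.02-fold lower (2.72 to 3.35). In the WT pair Vash1 had 68 reads against 51, a ratio of 1.36 whose interval held 1 (0.933 to 2.00). Thbs1 was 1.97-fold lower there (1.74 to 2.23). The Vash1 fold leans on the KO-labelled naive library: the levels were 4.61 in KO-labelled HDM, 7.245 in KO-labelled naive and 5.78 in WT naive skin. The co-receptor genes Nrp1 and Nrp2, named for their role, stayed within 2-fold in all 4 comparisons, with 2594 and 861 reads in KO-labelled HDM, 2686 and 600 in WT HDM, 4309 and 515 in KO-labelled naive and 3596 and 648 in WT naive skin.

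Of 13 measured genes of VEGF receptor signalling and tip cells, the leading endothelial cells of a sprout, 2 were higher and 1 lower with HDM in each pair, not the same ones. Pdgfb, which recruits pericytes, was 3.68-fold higher in the WT pair (2.30 to 6.13) and 2.85-fold lower in the KO-labelled pair (2.13 to 3.86). The tip cell peptide gene Apln had 124 reads in KO-labelled HDM and 79 in WT HDM skin, against 2 in KO-labelled naive and 175 in WT naive skin. The adaptor gene Shb was higher in the WT pair (2.11-fold, 1.87 to 2.38), and the guidance receptor gene Unc5b in the KO-labelled pair (4.47-fold, 3.75 to 5.37). The directions of Pdgfb and Apln differed between the pairs, and this rests on the KO-labelled naive library: against WT naive skin, KO-labelled HDM skin was 2.44-fold higher for Pdgfb (1.49 to 4.12) and 1.59-fold lower for Apln (1.25 to 2.01), the directions of the WT pair.

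Genes of the hypoxia response, which is known to drive Vegfa, had medians above those of all genes: 0.61 in the WT pair and 0.41 in the KO-labelled pair, against 0.03 and 0.06. In the WT pair 4 of 18 were higher and 0 lower, against 14.5% and 12.8% of all measured genes. In the KO-labelled pair 5 were higher and 2 lower, against 21.8% and 18.3%. Egln3, an oxygen-sensing hydroxylase gene, was 4.39-fold (3.83 to 5.06) and Hif1a 2.69-fold higher (2.46 to 2.94) with HDM in the WT pair. In the KO-labelled pair the oxidase gene Ero1l was 3.6-fold higher (3.15 to 4.13), and Arnt had 129 reads against 7. Arnt had 137 reads in WT HDM and 74 in WT naive skin, so its difference in the KO-labelled pair rests on the naive library that stands apart. Adm, the gene of the vessel-widening peptide adrenomedullin, was 3.77-fold (3.04 to 4.72) and the hydroxylase gene P4ha2 3.33-fold lower in the KO-labelled pair (2.62 to 4.28). The direction of P4ha2 rests on the KO-labelled naive library: its level was 6.385 in KO-labelled HDM, above 6.055 in WT naive skin. The Adm level was 6.651 in KO-labelled HDM, below 7.538 in WT naive skin. Between genotypes in naive skin, the KO-labelled minus WT log2 difference of Vegfa was -1.857. The hypoxia list had a median of 0.32 in that comparison, with 11 genes above 0 and 7 below. Any part of the hypoxia response in the Vegfa differences was not tested.

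**Figure D4:**
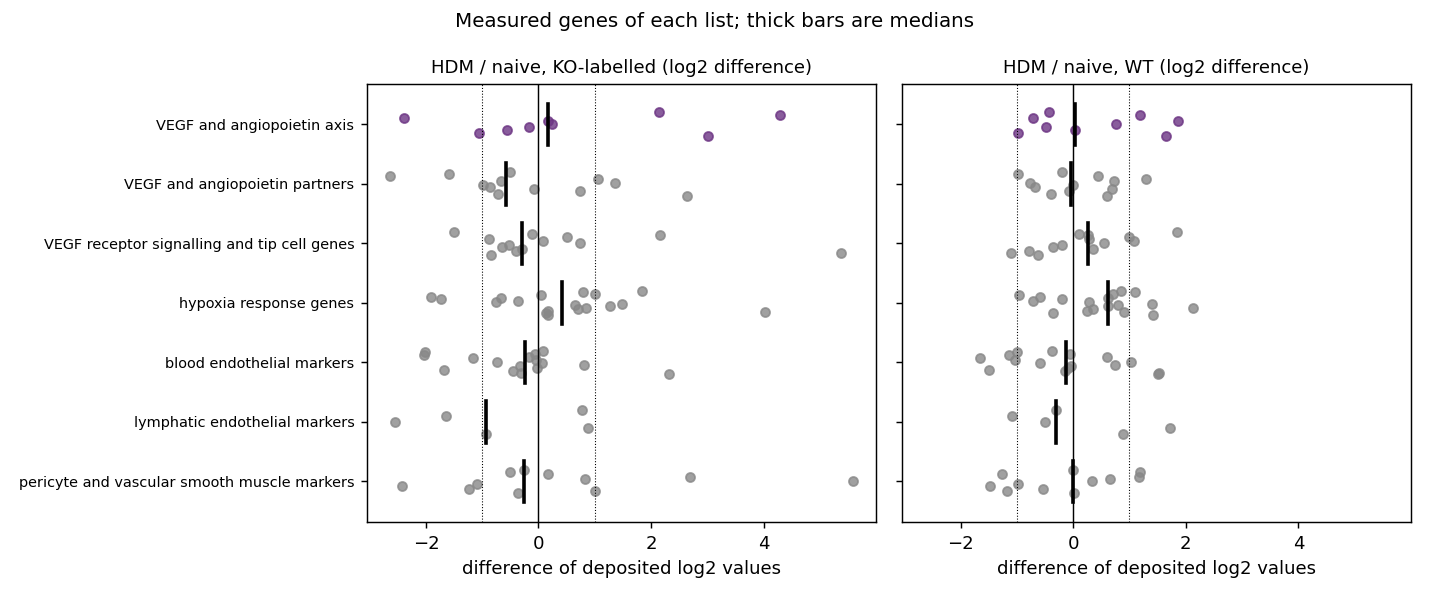
Difference of deposited log2 values between HDM and naive skin (horizontal axis) for the measured genes of each list in the KO-labelled and WT pairs; each point is a gene, thick bars are medians and dotted lines mark 2-fold. The 9 measured genes of the VEGF and angiopoietin axis lie on both sides of 0, and the hypoxia list has medians of 0.41 and 0.61.

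Markers of the cells that carry the receptors lay on both sides of 0. Of 16 measured blood endothelial markers, 3 were higher and 4 lower with HDM in the WT pair (median -0.12), and 1 was higher and 4 lower in the KO-labelled pair (median -0.23). The adhesion gene Pecam1 was 2.85-fold (2.38 to 3.42) and the cadherin gene Cdh5 2.91-fold higher (2.23 to 3.84) in the WT pair, while the receptor component gene Ramp2 was 3.15-fold (2.83 to 3.51) and the tight junction gene Cldn5 2.84-fold lower (2.11 to 3.88). The 18 listed markers summed to 1709 RPM in KO-labelled HDM and 1329 in WT HDM skin, against 5118 in KO-labelled naive and 2194 in WT naive skin; Vwf was at 0 reads in KO-labelled naive skin (96, 64 and 78 in KO-labelled HDM, WT HDM and WT naive skin) and Sox18 at 0 in WT naive skin. Fabp4, which is also on the adipocyte list, and Cd34 held most of the KO-labelled naive sum (4500 RPM), and without them, a choice also made after the values were seen, the sums were 621 in KO-labelled HDM and 649 in WT HDM skin, against 617.8 in KO-labelled naive and 755 in WT naive skin. Pericyte and vascular smooth muscle markers, which include the cells known to make angiopoietin 1, had 2 of 11 higher and 3 lower in the WT pair (median -0.01) and 3 higher and 3 lower in the KO-labelled pair (median -0.27), with none at 0 and with sums of 328 and 286 RPM in KO-labelled and WT HDM skin, against 390 and 298 in KO-labelled and WT naive skin. Wound keratinocyte markers, of a cell type known to make VEGF-A, had 9 of 10 higher and 0 lower in each pair; they summed to 48288 and 56667 RPM with HDM, against 2584 and 4702 in naive skin, with 2 at 0 in KO-labelled naive skin. Macrophage markers summed to 796 and 1025 RPM with HDM, against 1119 and 483 in naive skin, with 8 of 13 higher and 0 lower in the WT pair and 0 higher and 3 lower in the KO-labelled pair. Cartilage markers summed to 553 and 2050 against 2670 and 3369, and salivary secretory genes to 15.7 and 72.9 against 8277 and 72509, in each case KO-labelled and WT HDM before KO-labelled and WT naive skin. Sox9 alone held 546 RPM of the cartilage sum in KO-labelled HDM skin. Between genotypes in HDM skin, 6 of 7 measured cartilage markers were lower by 2-fold in the KO-labelled library (4.67% of all genes), 0 higher and 1 within 2-fold. Cytl1 had 26 reads there against 11608 in WT HDM skin, and Chad 1 against 1651. The part of these cells in the differences of the 10 genes was not tested.

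The genes with the most similar profile over the 4 libraries were sought by the Euclidean distance between centred log2 values among 11623 measured genes. For Vegfa they were Ak6 (0.0902 on the log2 scale), Vangl1 (0.236) and Hist1h2ab (0.239), a histone gene with near-identical copies. For Tek they were Trappc9 (0.0694), Pex14 (0.0726) and Clk3 (0.138). With 4 values per gene, such a likeness is a description of these libraries.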

How the data were processed

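Total RNA of skin (500 ng per library, Trizol) entered a QuantSeq 3′ kit, per the labels. The authors deposited 1 table per library of log2 values with 3 decimals; the submitters' processing notes name Bowtie2, bedtools and mm10, while the sources used here do not state the normalization or the annotation. After back-conversion, low values fell on multiples of a step of 0.939 in KO-labelled HDM, 1.08 in WT HDM, 0.936 in KO-labelled naive and 1.06 in WT naive skin. Dividing by it gave reads. Among values of at most 200 reads, the share within 0.1 of a whole number was 99.1%, 98.9%, 96.2% and 99.3%, in that order. The recovered reads are approximate above that. Values under 0.5 read were taken as 0.

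Symbols on more than 1 line (35) were left out of all tests. Measured genes (11624) had a mean above 5.10, the median. Ratios have exact conditional binomial 95% intervals (Clopper-Pearson); PCR reads without molecular identifiers are not independent molecules, so these cover counting error only. Folds of read ratios have normal intervals on the log scale. Python 3.11.15, scipy 1.17.1 and limma 3.58.1 (R 4.3.3) were used, and the fit and the read recovery were run on simulated data. The values simulated for the fit were additive, so that run does not cover the departures from a like response seen in these libraries. Named genes were the 10 genes, at most 2 per direction, list and comparison past 2-fold, and the nearest 3 profiles of Vegfa, Kdr and Tek, of which those of Kdr are not reported here; those named for a role are marked. Genes and lists were chosen with earlier results of these data known. Coordinates are from GENCODE M21 (mm10), promoters from RefSeq (GRCm38.p6). Alternatives covered scaling, pseudocount, filter, fold, endothelial reference and error model.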

Additional observations from a re-analysis of the deposited data

Results flagged for a closer look

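The HDM difference had opposite signs in KO-labelled and WT skin for 3 genes, each sign resting on 1 pair of libraries. Tek was higher with HDM in the KO-labelled pair (log2 difference 2.14) and lower in the WT pair (-0.43), and the KO-labelled minus WT difference was 2.57 (counting interval 1.83 to 3.30). Vegfc was lower in the KO-labelled pair (-3.16) and 0.12 in the WT pair, a difference of -3.29 (-4.73 to -1.84). Pgf was -0.56 in the KO-labelled and 0.03 in the WT pair, a difference of -0.59 whose counting interval held 0 (-1.59 to 0.42). The Tek and Vegfc differences both rest on the KO-labelled naive library, with 27 and 89 reads there; against WT naive skin, KO-labelled HDM skin differed by 0.03 for Tek and -0.75 for Vegfc. These differences were not tested.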

How the results depend on the processing

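Of the 40 log2 differences of the 10 genes, the 16 past 2-fold stayed past it under RPM, a pseudocount of 5, trimmed-mean (TMM) scaling and median-of-ratios scaling, and 39 of 40 kept their sign under these 4 settings; Kdr between genotypes in HDM skin was the exception. The deposited scale was already close to the TMM scale, for example 0.9259 against 0.9265 in WT HDM and 1.066 against 1.066 in KO-labelled naive skin. The median-of-ratios scale was near both (0.9283 and 1.056). Agreement under these 2 settings was thus nearly fixed in advance. Counts of measured genes past the size rule moved as follows. At 1.5-fold they were 6 of 9 in place of 3 for HDM in WT skin (50.1% of all measured genes) and 6 of 9 in place of 1 between genotypes in HDM skin (22.1%). At 3-fold they were 3 in place of 5 between genotypes in naive skin (14.6%) and 0 in place of 1 in HDM skin (2.50%). Relative to the median of blood endothelial markers, 3 in place of 5 passed between genotypes in naive skin (32.8%). A stricter expression filter left 2 genes, Vegfb and Flt1, of which 0 passed for HDM in WT skin (21.1% of 4408 genes), 1 for HDM in KO-labelled skin (27.7%), and 0 between genotypes in naive (13.9%) and in HDM skin (4.31%). With WT naive as the naive library, chosen after seeing the data because of the KO-labelled naive library, 2 (Vegfa higher, Angpt1 lower) in place of 5 passed for HDM in KO-labelled skin (23.9%). Without that library the comparison of genotypes in naive skin has no value, and the additive fit has no residual degree of freedom.

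The additive limma fit called 478 genes for treatment, 1293 with all genes above 0 and 15 without the intensity trend. For genotype it called 0 genes, 68 with all genes above 0, 2 with TMM scaling and 2 with a pseudocount of 5. The adjusted p of Vegfa for treatment ranged from 5.01e-05 to 0.294 over the alternatives. The cause of these changes was not tested. No paired analysis was possible because each group holds 1 library and the labels give no replicate shared between groups. Counts under 30 reads limit Vegfc in 3 libraries, Pgf in both WT libraries, and Angpt2 and Tek in KO-labelled naive skin.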
